A study of Mus musculus with 6 samples.

Results

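The Toll-like receptor family was followed in the RNA of cDC1s with floxed c-Jun and JunB genes, with and without Itgax-Cre. Its members were taken by symbol, 10 Tlr genes out of 54532 genes counted in each library, namely 6 endosomal receptors (Tlr3, Tlr7, Tlr9, Tlr11, Tlr12 and Tlr13) and 4 surface receptors (Tlr1, Tlr2, Tlr4 and Tlr6). All 10 passed the filter on low counts.

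Toll-like receptors are membrane proteins of innate immune cells that bind microbial molecules through leucine-rich repeats and signal through an intracellular TIR domain to NF-κB and interferon regulatory factors. The endosomal receptors read nucleic acids, or in the case of TLR11 and TLR12 protozoan profilin, after the chaperone UNC93B1 has carried them from the endoplasmic reticulum. The surface receptors bind bacterial lipids and lipopeptides. Mouse cDC1s are known for high TLR3 and for the profilin receptors TLR11 and TLR12.

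cDC1s, the cross-presenting subset of conventional dendritic cells, were grown from bone marrow with FLT3L at 80 ng/mL, a cytokine that drives dendritic cell development, and collected on day 8. The sort kept CD24+CD11c+ cells that lacked B220, CD115 and CD172a. Libraries were made from 3 c-Jun/JunB fl/fl cultures (fl/fl 1, 2 and 3) and 3 c-Jun/JunB fl/fl Itgax-Cre cultures (Δ/Δ 1, 2 and 3), each grown from a separate mouse. Cultures of both genotypes carried floxed alleles of both genes, came from mice of a mixed 129Sv × C57BL/6 background aged 8 to 16 weeks, and had no Toll-like receptor ligand named in their labels. In Δ/Δ cultures Cre is driven by the Itgax (CD11c) promoter, so deletion can begin only once a cell has switched on Itgax, and the sources used here do not give the stretch of each gene that is removed. Reads counted on genes were 25860931, 26788296 and 23666519 in fl/fl 1, 2 and 3 and 24429016, 21693217 and 22874838 in Δ/Δ 1, 2 and 3. Values are counts scaled to library size (CPM, which sum to 1000000 per library before edgeR's TMM factors are applied), listed in the order of cultures 1, 2 and 3 of a genotype, and means carry the SD over 3 cultures.

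The floxed genes were read first. Jun, which encodes c-Jun, measured 70.9 CPM, 52.5 CPM and 63.1 CPM in the fl/fl cultures against 48.2 CPM, 44.3 CPM and 60.5 CPM in the Δ/Δ cultures, and the genotypes overlapped (log2 fold change −0.29, adjusted p = 0.345 by edgeR's quasi-likelihood test). Junb measured 315 CPM, 274 CPM and 413 CPM in the fl/fl cultures against 110.4 CPM, 171 CPM and 212 CPM in the Δ/Δ cultures, with no overlap, and missed the threshold (log2 fold change −1.02, adjusted p = 0.0729 by edgeR). By DESeq2's Wald test, the adjusted p of Junb was 0.000119, in a range of 0.000119 to 0.228 over the alternatives, and by edgeR it passed with no filter (0.0161) and without Δ/Δ 1 (0.0359). Reads outside a deleted stretch still count, so whole-gene reads are no measure of how many cells carried a deletion.

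The cDC1 label was set against 13 genes listed as cDC1 markers. They summed to 12879, 12905 and 12687 CPM in the fl/fl cultures and to 10396, 11964 and 11205 CPM in the Δ/Δ cultures. Not every gene of the list is particular to cDC1s, since the study gated cDC1s and cDC2s alike on CD11c, which Itgax encodes. All 13 passed the filter, and the most abundant was Wdfy4, a gene needed for cross-presentation. It averaged 3692 CPM in the fl/fl and 3051 CPM in the Δ/Δ cultures, and Cd24a, the gene of sort marker CD24, 493 and 399 CPM. Both were lower in each Δ/Δ than in each fl/fl culture and missed the threshold (adjusted p = 0.0876 and 0.0605 by edgeR). Cadm1 was higher in each Δ/Δ than in each fl/fl culture and also missed it (adjusted p = 0.0615 by edgeR). Irf8, which encodes the transcription factor that specifies cDC1s, averaged 2712 ± 60.3 CPM in the fl/fl cultures and 2795 ± 76.6 CPM in the Δ/Δ cultures. The dead-cell receptor gene Clec9a averaged 270.0 ± 3.15 CPM and 247 ± 37.7 CPM, and Batf3, a cDC1 transcription factor gene, lay between 52.2 and 57.3 CPM and between 45.2 and 66.2 CPM. Of the 13 markers, 3 fell in Δ/Δ cultures by edgeR's test and 0 rose, beside 1.85% and 2.03% of all tested genes (5 lower and 1 higher at an unadjusted p under 0.05, 5 and 1 by DESeq2, 3 and 0 by limma-voom), and genotypes did not overlap for 6, beside 26.0% of tested genes. Over all tested genes, in either direction, 19.4% had an unadjusted p under 0.05, 8.56% passed by DESeq2 and 4.08% by limma-voom. Those that fell were the chemokine receptor gene Xcr1 (log2 fold change −1.42, adjusted p = 0.00812), the CD11c gene Itgax (−1.22, adjusted p = 0.0147) and the sorting nexin gene Snx22 (−0.86, adjusted p = 0.0375), all with edgeR's Benjamini-Hochberg adjustment. The edgeR calls of Xcr1 were lost without fl/fl 1 or fl/fl 2 (adjusted p = 0.0569 and 0.0501), those of Itgax without any 1 fl/fl culture (0.0505 to 0.0781) and those of Snx22 without any 1 fl/fl culture or Δ/Δ 2 (0.0602 to 0.149). Xcr1 still measured 178, 201 and 122 CPM in the Δ/Δ cultures.

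The Δ/Δ cultures differed among themselves. Δ/Δ 2 held 655 CPM of Fscn1, an actin-bundling gene of mature dendritic cells, against 31.8 CPM in Δ/Δ 1 and 92.7 CPM in Δ/Δ 3, with 183 to 293 CPM in the fl/fl cultures. The migration receptor gene Ccr7 measured 376 CPM in Δ/Δ 2 against 26.9 and 60.8 CPM in Δ/Δ 1 and Δ/Δ 3. These genes and the other maturation genes in the list (7 in all) summed to 1074, 769 and 957 CPM in the fl/fl cultures and to 287, 1853 and 453 CPM in the Δ/Δ cultures, with Cd83 the most abundant by the mean of each genotype. By edgeR 0 of the 7 passed, and without Δ/Δ 2 3 passed, all lower. Over all genes Δ/Δ 1 changed the count of calls more, with 1320 without it and 719 without Δ/Δ 2 beside 500 with all cultures. Fscn1 and Ccr7 were chosen as examples after their values were seen. Results are also given without Δ/Δ 2.

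Of the 10 Toll-like receptor genes, 3 passed an adjusted p of 0.05 between genotypes in edgeR's quasi-likelihood fit, which 3.88% of all 12894 tested genes did. Tlr1 and Tlr13 rose in Δ/Δ cultures (2.03% of tested genes rose) and Tlr3 fell (1.85% fell). Tlr1 alone also reached a log2 fold change of at least 1, as did 1.86% of tested genes. Non-overlapping genotypes were found for 4 of the 10, the same genes and Tlr6, against 26.0% of tested genes. The median log2 fold change of the 10 genes was 0.02, beside 0.00179 over all tested genes. Again 3 of the 10 passed without Δ/Δ 2. The number fell to 1 without fl/fl 1 or without fl/fl 2 and to 2 without fl/fl 3. Over all tested genes, 95, 95 and 201 passed without fl/fl 1, 2 and 3, beside 500 with all cultures. In bulk RNA, a smaller share of expressing cells and less RNA per cell cannot be told apart.

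**Figure D1:**
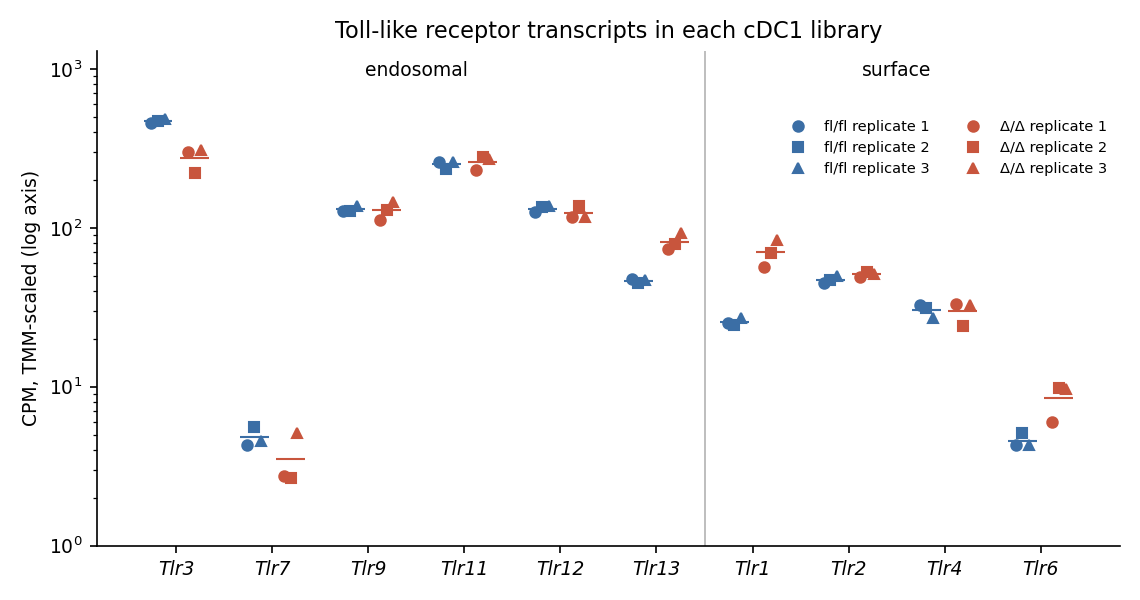
CPM of each Toll-like receptor gene on a log axis, with 1 symbol per culture (fl/fl blue, Δ/Δ red, symbol shape by replicate) and a line at the mean of 3. Tlr3 lies between 456 and 483 CPM in the fl/fl cultures and between 219.8 and 308 CPM in the Δ/Δ cultures, while Tlr13 and Tlr1 lie higher in every Δ/Δ culture than in any fl/fl culture.

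Tlr3 is the receptor for double-stranded RNA and the member with the highest mean CPM in both genotypes. It measured 456, 469 and 483 CPM in the fl/fl cultures and 300.2, 219.8 and 308 CPM in the Δ/Δ cultures. Every Δ/Δ culture lay below every fl/fl culture, and the lowest was Δ/Δ 2. The mean was 469 ± 13.3 CPM in the fl/fl cultures and 276 ± 48.8 CPM in the Δ/Δ cultures, a ratio of 0.588 (log2 fold change −0.77, 95% interval −1.06 to −0.47, adjusted p = 0.0226 by edgeR). The spread between cultures was also wider in Δ/Δ, with a coefficient of variation of 17.7% against 2.83%. Leaving out Δ/Δ 2 gave a log2 fold change of −0.63 and an adjusted p of 0.00386 by edgeR. Leaving out an fl/fl culture kept the size of the change (−0.79, −0.77 and −0.75 without fl/fl 1, 2 and 3) but ended the call, with edgeR adjusted p of 0.108, 0.107 and 0.0885. DESeq2's Wald test gave an adjusted p of 1.38e-07, the lowest in a range up to 0.108 over the alternatives. Tlr3 (ENSMUSG00000031639.12) lies on the minus strand at chr8:45395665-45411080 of GRCm38. The antisense gene Gm45542 overlaps it near its start and held 8 reads over the 6 libraries.

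Tlr13 encodes an endosomal receptor for bacterial ribosomal RNA. It measured 47.4, 44.9 and 47.2 CPM in the fl/fl cultures and 73.4, 78.9 and 92.5 CPM in the Δ/Δ cultures. All Δ/Δ cultures lay above all fl/fl cultures, and the fl/fl cultures were closely spaced. Its mean rose from 46.5 ± 1.40 to 81.6 ± 9.82 CPM, 1.76-fold (log2 fold change 0.81, 95% interval 0.59 to 1.03, adjusted p = 0.00685 by edgeR). Without Δ/Δ 2 the log2 fold change was 0.84 with an edgeR adjusted p of 0.0113. The call was lost without fl/fl 1 (0.83, adjusted p = 0.0533 by edgeR) and without fl/fl 2 (0.78, adjusted p = 0.0622 by edgeR). Tlr13 (ENSMUSG00000033777.4) lies on the plus strand at chrX:106143204-106160493, and all 6 libraries held Y-linked reads with at most 1 read on Xist.

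The remaining endosomal receptors overlapped between genotypes. Tlr11, which together with Tlr12 serves recognition of profilin of Toxoplasma, measured 259, 233 and 259.8 CPM in the fl/fl cultures and 231, 278 and 272 CPM in the Δ/Δ cultures. Its log2 fold change was 0.05 with a 95% interval of −0.15 to 0.26 (adjusted p = 0.775 by edgeR). For Tlr12 the values were 125, 134 and 137 CPM in the fl/fl cultures and 117, 138 and 116 CPM in the Δ/Δ cultures. The highest Tlr12 value of all 6 was that of Δ/Δ 2, and the log2 fold change was −0.09 with an interval of −0.29 to 0.1 (adjusted p = 0.582 by edgeR).

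Tlr9, the receptor for unmethylated CpG DNA, measured 127, 128 and 137 CPM in the fl/fl cultures and 113, 130.2 and 145 CPM in the Δ/Δ cultures. The Δ/Δ cultures thus spanned both sides of the fl/fl range (log2 fold change −0.01, interval −0.24 to 0.21, adjusted p = 0.953 by edgeR). Tlr7, the receptor for single-stranded RNA and a gene typical of pDCs, was the lowest endosomal member per kb, with 4.28, 5.56 and 4.54 CPM in the fl/fl cultures and 2.76, 2.66 and 5.11 CPM in the Δ/Δ cultures. Δ/Δ 1 and Δ/Δ 2 lay below the fl/fl cultures and Δ/Δ 3 among them. Its interval was the widest of the 10, −1.15 to 0.25 around a log2 fold change of −0.45 (adjusted p = 0.45 by edgeR). For Tlr9, Tlr11 and Tlr12 the intervals lie well within a change of 1 on the log2 scale in either direction, while that of Tlr7 reaches past a fall of that size.

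Among the surface receptors, Tlr1, whose protein pairs with TLR2 to bind triacylated lipopeptides, changed by the largest factor of the 10. It measured 25.2, 24.4 and 26.9 CPM in the fl/fl cultures and 56.4, 69.5 and 84.0 CPM in the Δ/Δ cultures. The lowest Δ/Δ culture was above the highest fl/fl culture, and Δ/Δ 3 was the highest. The mean rose from 25.5 ± 1.27 to 70.0 ± 13.8 CPM, 2.74-fold (log2 fold change 1.46, 95% interval 1.12 to 1.79, adjusted p = 0.0042 by edgeR). Without Δ/Δ 2 the value was again 1.46, with an edgeR adjusted p of 0.00737. Tlr1 passed with any 1 culture left out and under each other setting tried, with a log2 fold change between 1.3 and 1.59 and an adjusted p of at most 0.0437 across edgeR, DESeq2 and limma-voom.

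Tlr6, which pairs with TLR2 to bind diacylated lipopeptides, measured 4.32, 5.08 and 4.33 CPM in the fl/fl cultures and 5.96, 9.75 and 9.65 CPM in the Δ/Δ cultures. The genotypes did not overlap, and Δ/Δ 1 lay nearest to the fl/fl range. The log2 fold change of 0.88 (95% interval 0.35 to 1.41) missed the threshold with an adjusted p of 0.0835 by edgeR. It passed by DESeq2's Wald test (adjusted p = 0.0173) and, by edgeR, without Δ/Δ 1 (adjusted p = 0.0114), with 0.0114 to 0.297 across the alternatives. The edgeR adjusted p was 0.137 without Δ/Δ 2.

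Tlr1 (ENSMUSG00000044827.10, chr5:64924679-64933563) and Tlr6 (ENSMUSG00000051498.6, chr5:64952031-64960097) lie on the same strand, the minus strand, 18468 bases apart. Their transcripts share sequence. Of all 75-base windows, 11.5% of those in the longest Tlr1 transcript and 9.44% of those in the longest Tlr6 transcript occurred in the other gene as well. Read pairs lying wholly inside such stretches map to more than 1 place and were left out of the counts, so the level of both genes is understated and pairs that differ at few bases are less certain. For the other surface and endosomal members 0 windows were shared with another gene, except Tlr3, with 0.992% shared with its antisense gene Gm45542.

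Tlr2, the common partner of TLR1 and TLR6, measured 45.0, 46.7 and 49.6 CPM in the fl/fl cultures and 48.8, 52.4 and 51.4 CPM in the Δ/Δ cultures. Δ/Δ 1 lay within the fl/fl range and the other Δ/Δ cultures just above it (log2 fold change 0.11, interval −0.05 to 0.27, adjusted p = 0.428 by edgeR). Tlr4, the receptor for lipopolysaccharide, measured 32.6, 31.2 and 26.9 CPM in the fl/fl cultures and 33.3, 24.2 and 32.5 CPM in the Δ/Δ cultures. Its lowest value was in Δ/Δ 2 and its highest in Δ/Δ 1 (log2 fold change −0.01, interval −0.35 to 0.32, adjusted p = 0.976 by edgeR). Within the TLR2 group, therefore, the values for Tlr2 overlapped while those for Tlr1 and Tlr6 did not.

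**Figure D2:**
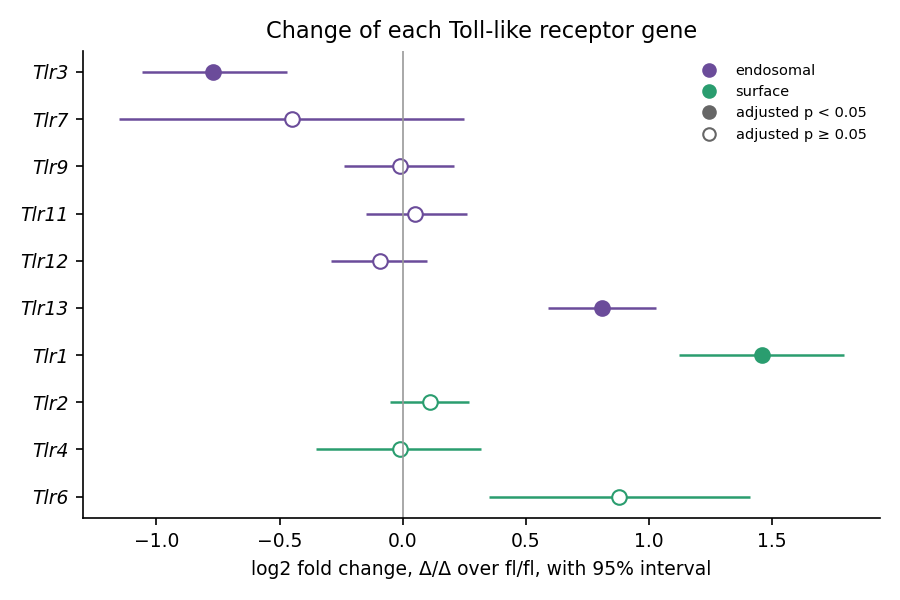
Log2 fold change of each Toll-like receptor gene, Δ/Δ over fl/fl, with its 95% interval from edgeR's fit (purple for endosomal, green for surface, filled where the adjusted p is under 0.05). Tlr3 lies at −0.77, Tlr13 at 0.81 and Tlr1 at 1.46, and the interval of Tlr6 (0.35 to 1.41) lies above 0 although its symbol is open.

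Tlr5 and Tlr8, which encode the flagellin receptor and a receptor for single-stranded RNA, did not pass the filter on low counts. Tlr5 lay between 0 and 0.467 CPM over the 6 libraries. Tlr8 lay between 0 and 0.519 CPM, with no read in 4 libraries. A count of 0 allows up to 3 reads, 0.111 to 0.14 CPM depending on the library and for counting error only.

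Levels of different genes were compared as CPM per kb of exon. In fl/fl cultures the order ran from Tlr3 (90.1 ± 2.55 CPM per kb) through Tlr11 (76.6 ± 4.64), Tlr12 (41.6 ± 2.00), Tlr9 (37.6 ± 1.49), Tlr2 (15.6 ± 0.769), Tlr13 (10.8 ± 0.325), Tlr1 (7.62 ± 0.380), Tlr4 (5.45 ± 0.533) and Tlr6 (1.23 ± 0.117) to Tlr7 (1.17 ± 0.166). Neighbours in that order did not overlap in their 3 values apart from Tlr6 and Tlr7, though Tlr12 and Tlr9 nearly touched. Among 11170 protein-coding genes tested, the fl/fl level per kb of Tlr3 exceeded that of 96.2% and the level of Tlr7 that of 16.2%.

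In Δ/Δ cultures the order on the same scale was Tlr11 (79.6 ± 7.86 CPM per kb), Tlr3 (53.0 ± 9.37), Tlr12 (39.0 ± 3.89), Tlr9 (37.2 ± 4.68), Tlr1 (20.9 ± 4.13), Tlr13 (19.0 ± 2.28), Tlr2 (16.9 ± 0.613), Tlr4 (5.40 ± 0.906), Tlr6 (2.27 ± 0.579) and Tlr7 (0.860 ± 0.340). Tlr11 thus stood above Tlr3, and each Tlr11 value was above each Tlr3 value. Tlr3 overlapped Tlr12, Tlr12 overlapped Tlr9, Tlr1 overlapped Tlr13, and Tlr13 overlapped Tlr2. Against the protein-coding genes tested, the level per kb of Tlr1 exceeded 52.1% in fl/fl and 79.2% in Δ/Δ cultures, and that of Tlr13 exceeded 62.0% and 77.2%.

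**Figure D3:**
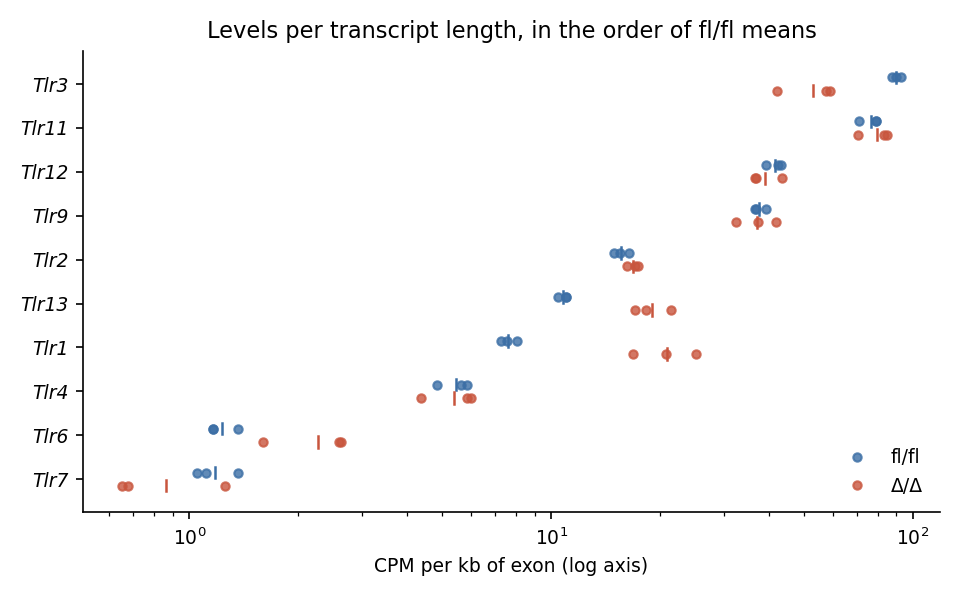
Level of each Toll-like receptor gene as CPM per kb of exon on a log axis, with 1 dot per culture and a tick at the mean (fl/fl blue, Δ/Δ red), ordered by the fl/fl mean. Tlr1 stands seventh at 7.62 in fl/fl cultures and reaches 20.9 in Δ/Δ cultures, above Tlr2 at 16.9.

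Endosomal receptors were then set against surface receptors in each library. The endosomal sum was 255, 252 and 267 CPM per kb in the fl/fl cultures and 215, 227 and 243 CPM per kb in the Δ/Δ cultures. The surface sum was 29.5, 29.8 and 30.5 CPM per kb in the fl/fl cultures and 40.6, 45.1 and 50.6 CPM per kb in Δ/Δ cultures. Neither sum overlapped between genotypes, the endosomal one being lower and the surface one higher in Δ/Δ cultures. Most of the surface difference lay in Tlr1, whose mean went from 7.62 to 20.9 CPM per kb. The means of Tlr2, Tlr4 and Tlr6 went from 15.6, 5.45 and 1.23 to 16.9, 5.40 and 2.27 CPM per kb. The sum of the other 5 endosomal genes, without Tlr3, overlapped between genotypes. It was 167, 162 and 174 CPM per kb in the fl/fl cultures and 158, 185 and 184 CPM per kb in the Δ/Δ cultures. Δ/Δ 1 thus lay below the fl/fl range and the other Δ/Δ cultures above it. The endosomal share of the family was 89.6%, 89.4% and 89.7% in the fl/fl cultures and 84.1%, 83.4% and 82.8% in the Δ/Δ cultures. Its mean was 89.6 ± 0.143% and 83.4 ± 0.662%, a difference of −6.16 percentage points that is larger than the spread of either group. The sum over all 10 genes overlapped, with 288 ± 8.10 CPM per kb in the fl/fl cultures and 274 ± 19.1 CPM per kb in Δ/Δ cultures.

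The mean log2 fold change of the endosomal genes minus that of the surface genes was −0.69. The mean log2 CPM of the endosomal genes overlapped between genotypes, with 6.42, 6.47 and 6.48 in the fl/fl cultures and 6.25, 6.30 and 6.55 in the Δ/Δ cultures, and in each library it exceeded that of the surface genes by 2.09, 2.09 and 2.16 in the fl/fl cultures and by 1.47, 1.37 and 1.45 in the Δ/Δ cultures. This difference is a description of genes whose place was known beforehand and was given no p. It does not stand for a shared direction, since Tlr13 is endosomal and rose, and Tlr2 and Tlr4 are surface receptors whose values overlapped. It was −0.65 without Δ/Δ 2. The ratio of Tlr3 to Tlr1 reads went from 18.1, 19.2 and 17.9 in fl/fl 1, 2 and 3 to 5.32, 3.16 and 3.66 in the Δ/Δ cultures, with the lowest ratio in Δ/Δ 2. As a share of the family per kb, Tlr3 held 31.3 ± 0.571% in fl/fl and 19.4 ± 3.57% in Δ/Δ cultures, Tlr1 2.65 ± 0.0604% and 7.59 ± 0.977%.

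**Figure D4:**
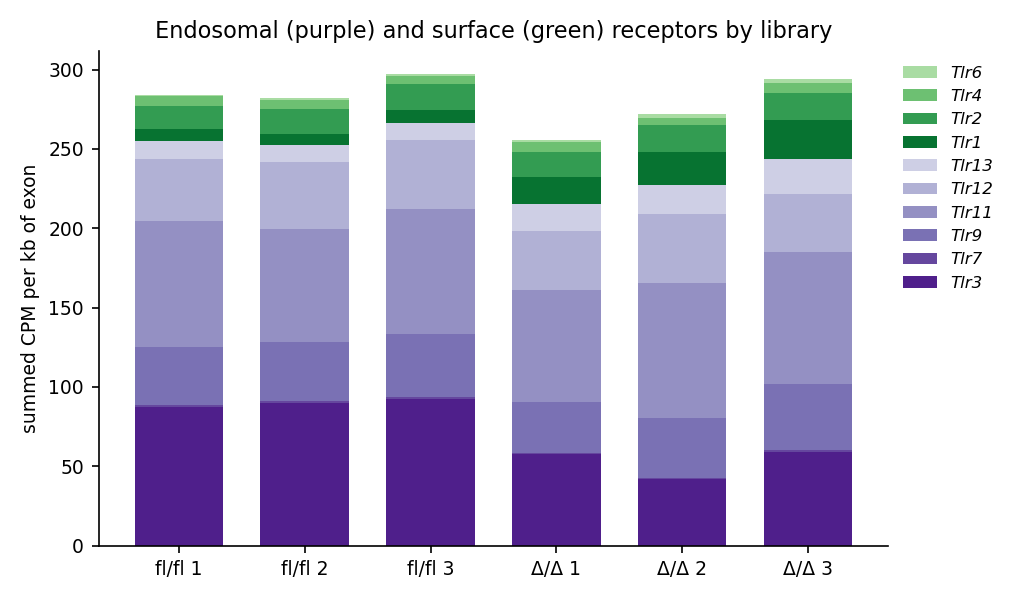
Stacked bars of CPM per kb of exon for the 10 receptor genes in each culture, endosomal genes in purple and surface genes in green, starting at 0. The green part lies between 29.5 and 30.5 in fl/fl and between 40.6 and 50.6 in Δ/Δ cultures. It grows mostly by its Tlr1 segment, and the dark Tlr3 segment shrinks.

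The windows around the annotated starts of the members were searched for short motifs, because c-Jun and JunB belong to AP-1, a family of DNA-binding factors. RefSeq windows on GRCm38.p6, from 250 bases before to 50 bases after a start, were found for 8 of the 10 genes (10 windows, a pair each for Tlr1 and Tlr6), and none was given for Tlr4 and Tlr7. Both strands were searched for TGANTCA (AP-1), TGACGTCA (the related CRE motif), AANNGAAA (the core read by interferon regulatory factors) and GAGGAAGT (PU.1). Among 32851 windows of all genes, these occurred in 7.81%, 1.79%, 23.9% and 3.20%. Among the 10 windows of the family, the AP-1 motif occurred in 1 (Tlr9), the CRE motif in 0, the interferon regulatory factor motif in 6 (Tlr2, Tlr3, Tlr11, Tlr12, and 1 window each of Tlr1 and Tlr6) and the PU.1 motif in 3 (Tlr9, Tlr11 and 1 window of Tlr1). These matches are descriptions of letters and not of bound sites. Shown are the windows of the genes that changed, Tlr3, Tlr13 and Tlr1, and that of Tlr9 for its AP-1 match. Each is written 5′ to 3′ on the strand of the gene, with matches in capitals, none of which overlap in these windows.
Tlr3 (chr8:45410331-45410630, minus strand): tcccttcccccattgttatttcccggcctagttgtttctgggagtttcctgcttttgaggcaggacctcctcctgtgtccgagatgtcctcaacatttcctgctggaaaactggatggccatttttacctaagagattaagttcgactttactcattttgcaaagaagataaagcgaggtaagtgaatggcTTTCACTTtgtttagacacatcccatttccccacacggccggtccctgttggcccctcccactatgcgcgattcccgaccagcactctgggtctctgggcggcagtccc
Tlr13 (chrX:106143025-106143324, plus strand): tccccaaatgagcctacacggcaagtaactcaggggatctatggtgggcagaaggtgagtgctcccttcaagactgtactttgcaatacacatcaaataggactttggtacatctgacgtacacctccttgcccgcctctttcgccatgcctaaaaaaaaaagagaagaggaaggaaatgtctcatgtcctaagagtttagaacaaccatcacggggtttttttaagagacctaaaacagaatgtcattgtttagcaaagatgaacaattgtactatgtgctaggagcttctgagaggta
Tlr1 (chr5:64932650-64932949, minus strand): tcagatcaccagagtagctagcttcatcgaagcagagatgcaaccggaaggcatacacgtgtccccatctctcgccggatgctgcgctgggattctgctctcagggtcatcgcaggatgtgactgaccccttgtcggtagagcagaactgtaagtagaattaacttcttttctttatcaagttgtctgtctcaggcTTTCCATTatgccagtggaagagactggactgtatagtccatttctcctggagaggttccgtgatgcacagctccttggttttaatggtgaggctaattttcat
Tlr1 (chr5:64933509-64933808, minus strand): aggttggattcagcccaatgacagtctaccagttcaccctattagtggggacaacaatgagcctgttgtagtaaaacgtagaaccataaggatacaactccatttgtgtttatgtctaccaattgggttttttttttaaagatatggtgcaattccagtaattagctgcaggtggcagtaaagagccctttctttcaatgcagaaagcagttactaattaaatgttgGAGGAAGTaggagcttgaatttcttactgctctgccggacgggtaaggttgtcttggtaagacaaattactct
Tlr9 (chr9:106222348-106222647, plus strand): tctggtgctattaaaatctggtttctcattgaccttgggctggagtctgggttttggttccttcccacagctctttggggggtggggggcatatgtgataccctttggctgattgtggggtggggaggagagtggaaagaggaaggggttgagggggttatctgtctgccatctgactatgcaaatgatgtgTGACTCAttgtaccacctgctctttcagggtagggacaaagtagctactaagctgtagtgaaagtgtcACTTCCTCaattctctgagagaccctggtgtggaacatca
In the Tlr3 window the capitals mark the interferon regulatory factor motif on the opposite strand, with its first base at −59 from the start. This window lies wholly inside the gene, and the outer start of Tlr3, at chr8:45411080, was not searched. The Tlr13 window holds no match to any of the 4 motifs. Of the Tlr1 windows, the one that lies inside the gene holds an interferon regulatory factor match at −54 and the one at its outer start holds a PU.1 match at −23. In the Tlr9 window the AP-1 match begins at −58, and a PU.1 match on the opposite strand begins at position 10. The 3 genes that changed therefore held no AP-1 match in these windows, which cover 300 bases each and leave out the outer start of Tlr3.

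Tested genes within 200 kb of each receptor gene were listed. Near Tlr3 there were 2, of which Fam149a, 13374 bases away on the same strand, fell in Δ/Δ cultures. Fam149a measured 61.7, 61.4 and 62.5 CPM in the fl/fl cultures and 22.1, 18.9 and 16.4 CPM in the Δ/Δ cultures, with no overlap (log2 fold change −1.69, adjusted p = 0.00126 by edgeR). The other neighbour of Tlr3, Cyp4v3, had a log2 fold change of 0.13 (adjusted p = 0.463 by edgeR). Fam149a was named after its values were seen. Near Tlr1 there were 7 tested genes, Tlr6 among them, and near Tlr13 there were 5, of which 0 passed in either case by edgeR. In the Tlr1 window the log2 fold changes of the others ran from −0.22 (Fam114a1) to 0.57 (C230096K16Rik), and near Tlr13 from −0.34 (Taf9b) to 0.01 (Atp7a). Tlr3 shares chromosome 8 with Junb, 39.6 Mb away, and Tlr4 and Tlr12 share chromosome 4 with Jun, 28.1 and 33.6 Mb away.

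For each receptor gene that changed, the 5 tested genes with the highest Pearson correlation of log2 CPM over the 6 libraries were taken. Since the genotypes are separate for these genes, r over 6 libraries mostly reflects the difference between genotypes and is given as a description. Tlr1 was followed most closely by Rftn1 (r = 0.999), Itln1 (0.998), Tlr13 (0.997), Rassf1 (0.997) and Dvl1 (0.996). Tlr13 was followed by Rftn1 (r = 0.998), Tlr1 (0.997), Ciita (0.996), Dvl1 (0.995) and Cfap43 (0.994). Tlr1 and Tlr13 were thus within each other's nearest 5, and Rftn1 headed both lists. Rftn1, which encodes a lipid raft protein, measured 71.0, 66.1 and 75.6 CPM in the fl/fl cultures and 145, 165 and 196 CPM in the Δ/Δ cultures (log2 fold change 1.25, adjusted p = 0.00358 by edgeR). Its order over the Δ/Δ cultures was that of Tlr1 and Tlr13, lowest in Δ/Δ 1 and highest in Δ/Δ 3. Ciita, the transactivator of MHC class II genes, averaged 1069.5 CPM in the fl/fl cultures and 1471 CPM in the Δ/Δ cultures. Itln1 had no fl/fl read and a mean of 2.15 CPM in the Δ/Δ cultures.

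The genes nearest to Tlr3 were Ttc30a1 (r = 0.997), Gng2 (0.997), Asah1 (0.997), Plagl1 (0.994) and Zmym4 (0.992). Of these, Gng2, which encodes a G protein subunit, and Asah1, which encodes acid ceramidase, passed by edgeR (log2 fold change −0.43 and −0.41, adjusted p = 0.0458 and 0.0377). Asah1 measured 307, 309 and 307 CPM in the fl/fl cultures and 239.9, 206 and 250.5 CPM in the Δ/Δ cultures. Like Tlr3, it was lowest in Δ/Δ 2. Neither call held without any 1 fl/fl culture (edgeR adjusted p of 0.128 to 0.176), nor that of Gng2 without Δ/Δ 3 (0.0742).

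Genes that carry, assist or signal from the receptors were read from lists of 82 genes, of which 73 were tested. By edgeR's test 4 of the 73 fell and 0 rose, beside 1.85% and 2.03% of all tested genes, with a median log2 fold change of 0.09 beside 0.00179 over all tested genes. At an unadjusted p under 0.05, 14 were higher and 8 lower, DESeq2 called 7 higher and 5 lower, and limma-voom 0 higher and 4 lower, beside 19.4%, 8.56% and 4.08% of all tested genes. With Δ/Δ 2 left out, edgeR called 2 higher and 7 lower. Genotypes did not overlap for 24 of the 73 (32.9%), beside 26.0% of all tested genes. The number of calls fell to 0 without fl/fl 1 or fl/fl 2 and to 2 without fl/fl 3 or Δ/Δ 3, and rose to 17 without Δ/Δ 1. Over all tested genes it went from 500 to 95, 95, 201, 352 and 1320 without fl/fl 1, fl/fl 2, fl/fl 3, Δ/Δ 3 and Δ/Δ 1.

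Of 5 tested co-receptor genes, 1 fell by edgeR and 0 rose, beside 1.85% and 2.03% of all tested genes. Genotypes did not overlap for 1 of the 5 (20.0%), beside 26.0%. Cd180, which encodes a Toll-like receptor relative of the cell surface without a TIR domain, measured 383, 374 and 339 CPM in the fl/fl cultures and 242, 243 and 282 CPM in the Δ/Δ cultures. The genotypes did not overlap (log2 fold change −0.51, adjusted p = 0.0209 by edgeR, and 0.123 and 0.122 without fl/fl 1 and fl/fl 2). Cd14, the lipopolysaccharide co-receptor gene, lay between 0.593 and 1.53 CPM in 5 libraries and at 12.2 CPM in Δ/Δ 3 (adjusted p = 0.287 by edgeR). Ly96, which encodes the MD-2 subunit bound to TLR4, averaged 2.73 ± 0.462 and 2.24 ± 0.0785 CPM (adjusted p = 0.532 by edgeR). The median of this list was 0.3 on the log2 scale, and Lbp, which encodes a serum lipopolysaccharide carrier, had 0 reads in all libraries.

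Of 15 tested trafficking and processing genes, 1 fell by edgeR, beside 1.85% of all tested genes, and the median log2 fold change was 0.05. DESeq2 called 1 higher and 1 lower, beside 8.56% of all tested genes. At an unadjusted p under 0.05, 2 were higher and 2 lower, beside 19.4%. Unc93b1, the chaperone gene on which the endosomal receptors depend, was the most abundant of them by the mean of each genotype and measured 881, 906 and 972 CPM in the fl/fl cultures and 903, 940.4 and 1089 CPM in the Δ/Δ cultures. Its genotypes overlapped (log2 fold change 0.09, interval −0.11 to 0.28, adjusted p = 0.602 by edgeR). Rab7b, which encodes a late endosomal GTPase, fell from 929, 864 and 868 CPM to 726, 666 and 633 CPM in cultures 1, 2 and 3 of each genotype (log2 fold change −0.39, adjusted p = 0.0253 by edgeR). Its call was lost without fl/fl 1, 2 or 3 and without Δ/Δ 3, at edgeR adjusted p of 0.137, 0.107, 0.0906 and 0.0567.

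None of 6 adaptor genes passed by edgeR, with a median log2 fold change of −0.08. At an unadjusted p under 0.05 there were 2, by DESeq2 1 and by limma-voom 0, beside 19.4%, 8.56% and 4.08% of all tested genes. Myd88, the adaptor gene shared by all members but Tlr3, averaged 105 ± 4.69 CPM in the fl/fl cultures and 127 ± 24.2 CPM in the Δ/Δ cultures, with its highest value, 151 CPM, in Δ/Δ 2 (adjusted p = 0.309 by edgeR). Without Δ/Δ 1 it passed (log2 fold change 0.41, adjusted p = 0.0327 by edgeR, in a range of 0.0327 to 0.597 over the alternatives). Without Δ/Δ 2 its log2 fold change was 0.13 (adjusted p = 0.522 by edgeR), beside 0.28 with all cultures. Ticam1, which encodes TRIF, the adaptor of TLR3, averaged 42.8 ± 3.05 and 40.8 ± 1.50 CPM (log2 fold change −0.07, interval −0.25 to 0.12). Tirap, the bridging adaptor gene for TLR2 and TLR4, averaged 38.7 ± 2.59 and 36.5 ± 4.84 CPM, and Ticam2, that for TLR4 and TRIF, 2.47 ± 0.655 and 4.20 ± 1.21 CPM (adjusted p = 0.729 and 0.242 by edgeR). Of 17 tested kinases and ubiquitin enzymes, edgeR called 0 (6 at an unadjusted p under 0.05, 1 by DESeq2 and 0 by limma-voom, beside 19.4%, 8.56% and 4.08% of all tested genes). Genotypes did not overlap for 8 of the 17 (47.1%, 6 higher and 2 lower in Δ/Δ cultures), beside 26.0% of all tested genes, and the median log2 fold change was 0.01.

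Among 8 transcription factor genes 1 fell by edgeR, beside 1.85% of all tested genes, and the median log2 fold change was 0.1. DESeq2 called 1 higher and 1 lower, as did an unadjusted p under 0.05, beside 8.56% and 19.4% of all tested genes. Irf7, which encodes the interferon regulatory factor that acts below TLR7 and TLR9, measured 113, 94.0 and 77.1 CPM in the fl/fl cultures and 24.6, 27.3 and 45.3 CPM in the Δ/Δ cultures. No Δ/Δ culture reached the fl/fl range, and the mean ratio was 0.343 (log2 fold change −1.54, interval −2.13 to −0.96, adjusted p = 0.0209 by edgeR). The edgeR adjusted p was 0.0371 without Δ/Δ 2 and passed the threshold no longer without fl/fl 1 (0.11) or fl/fl 2 (0.105). Irf3, which acts below TLR3 and TLR4, averaged 62.3 ± 2.54 and 68.9 ± 5.46 CPM, and Irf5, a partner of MyD88, 438 ± 19.6 and 428 ± 87.8 CPM (adjusted p = 0.345 and 0.922 by edgeR).

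Of 12 negative regulators 1 fell by edgeR, beside 1.85% of all tested genes, and the median was 0.29 on the log2 scale. DESeq2 called 2 higher and 1 lower, beside 8.56% of all tested genes. At an unadjusted p under 0.05, 3 were higher and 1 lower, beside 19.4%. Cyld, which encodes a deubiquitinase that restrains NF-κB signalling, measured 189, 192 and 191 CPM in the fl/fl cultures and 144, 159.7 and 137 CPM in the Δ/Δ cultures (log2 fold change −0.37, adjusted p = 0.0315 by edgeR). The genotypes did not overlap, and the call was lost without fl/fl 1, 2 or 3 or Δ/Δ 3, at edgeR adjusted p of 0.151, 0.159, 0.118 and 0.0641. Of 14 inducible output genes 10 were tested and edgeR called 0, with a median of 0.3. There were 3 at an unadjusted p under 0.05, 2 by DESeq2 and 0 by limma-voom, beside 19.4%, 8.56% and 4.08% of all tested genes. Il12b, the gene of the p40 chain of IL-12, measured 51.7, 35.4 and 40.8 CPM in the fl/fl cultures and 4.26, 122 and 13.2 CPM in the Δ/Δ cultures. Its highest and lowest values both lay in Δ/Δ cultures, and Δ/Δ 2, the library with high maturation genes, held the highest (log2 fold change 0.12, adjusted p = 0.962 by edgeR). Without Δ/Δ 2 the log2 fold change was −2.29 (adjusted p = 0.038 by edgeR, in a range of 0.038 to 0.998 over the alternatives). Ifnb1, the interferon-β gene, had 0 reads in every library, in cultures with no ligand named.

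**Figure D5:**
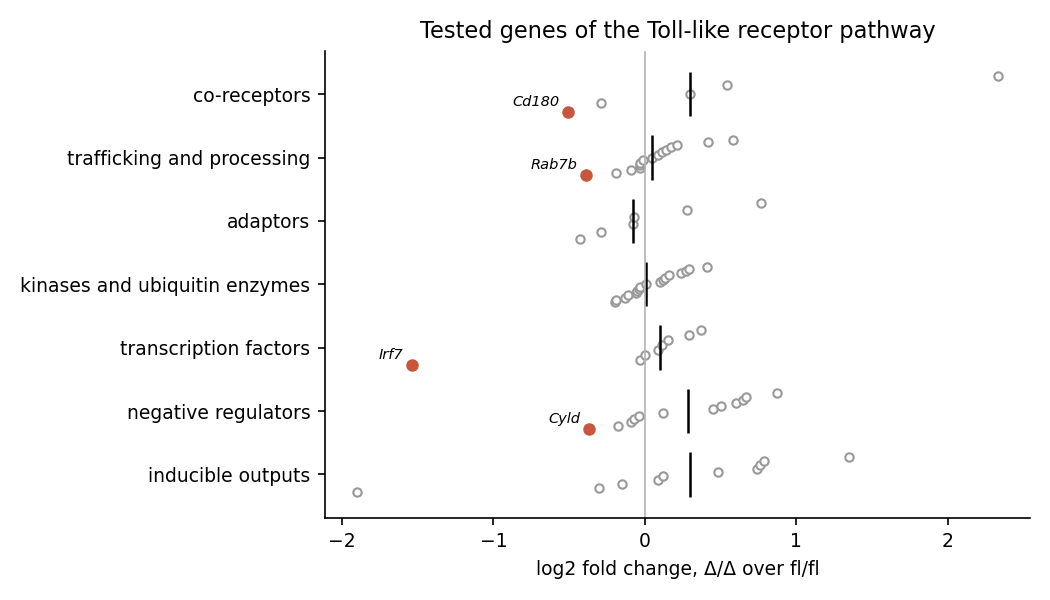
Log2 fold changes, Δ/Δ over fl/fl, of the 73 tested pathway genes by list, with a black line at each list's median and filled symbols for an adjusted p under 0.05 by edgeR. The 4 filled genes lie below 0, with Irf7 at −1.54, Cd180 at −0.51, Rab7b at −0.39 and Cyld at −0.37.

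Toll-like receptor genes are also expressed by other cells of such cultures, so marker genes of those cells were read beside them. Of 10 cDC2 markers 2 rose and 0 fell by edgeR, beside 2.03% and 1.85% of all tested genes (5 higher and 1 lower at an unadjusted p under 0.05, 4 and 0 by DESeq2, 2 and 0 by limma-voom, beside 19.4%, 8.56% and 4.08% of all tested genes), with a median log2 fold change of 0.7. They summed to 234, 256 and 382 CPM in the fl/fl cultures and to 526, 619.6 and 767 CPM in the Δ/Δ cultures. The lectin gene Cd209a, the most abundant in the Δ/Δ but not in the fl/fl cultures, measured 39.1, 39.1 and 69.2 CPM in the fl/fl cultures and 196, 268 and 239 CPM in the Δ/Δ cultures (log2 fold change 2.25, adjusted p = 0.00556 by edgeR), and Klf4, a cDC2 transcription factor gene and the most abundant in the fl/fl cultures, rose as well (0.97, adjusted p = 0.0321 by edgeR). Klf4 lost its edgeR call without any 1 fl/fl culture or Δ/Δ 3 (adjusted p = 0.0502 to 0.166). The gene for the cDC2 sort marker CD172a, Sirpa, did not pass, with 44.7 to 60.5 CPM in the fl/fl cultures and 40.9 to 46.8 CPM in the Δ/Δ cultures (adjusted p = 0.43 by edgeR). Irf4 and Itgam were higher without overlap and missed the threshold (log2 fold change 1.26 and 0.95, adjusted p = 0.0699 and 0.0927 by edgeR). Genotypes did not overlap for 5 of the 10 (4 higher and 1 lower), beside 26.0% of all tested genes.

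Of 8 pDC markers 1 rose by edgeR, beside 2.03% of tested genes, and 0 fell. DESeq2 called 2 higher and 1 lower, as did an unadjusted p under 0.05, beside 8.56% and 19.4% of all tested genes. Genotypes did not overlap for 3 of the 8 (37.5%), beside 26.0%. The gene that rose by edgeR was the chemokine receptor gene Ccr9, from 22.9 ± 1.84 to 60.8 ± 8.99 CPM (log2 fold change 1.41, adjusted p = 0.00333 by edgeR). The list summed to 266, 247 and 248 CPM in the fl/fl cultures and 266, 308 and 318 CPM in the Δ/Δ cultures, with a median of 0.11 on the log2 scale. Bst2, the most abundant of the list by the mean of each genotype, was lower in each Δ/Δ than in each fl/fl culture and missed the threshold (log2 fold change −0.41, adjusted p = 0.0572 by edgeR). Siglech was higher in each Δ/Δ than in each fl/fl culture and missed it as well (log2 fold change 1.44, adjusted p = 0.0571 by edgeR). It measured 7.79 to 10.8 CPM in the fl/fl cultures and 16.5 to 37.5 CPM in the Δ/Δ cultures. Of 8 monocyte and macrophage markers 6 were tested and 2 rose, beside 2.03% of all tested genes, namely Adgre1, which encodes F4/80, (0.91, adjusted p = 0.0317) and the chemokine receptor gene Ccr2 (0.96, adjusted p = 0.013), both by edgeR. By the same test Adgre1 did not pass without any 1 fl/fl culture or Δ/Δ 3 (adjusted p = 0.0756 to 0.148), nor Ccr2 without fl/fl 2 (0.0813). DESeq2 and limma-voom each called 2 of the 6 higher and 0 lower, beside 8.56% and 4.08% of all tested genes. At an unadjusted p under 0.05, 3 were higher and 0 lower, beside 19.4%. Genotypes did not overlap for 2 of the 6 (33.3%), beside 26.0%. That list summed to 2449, 2786 and 2869 CPM in the fl/fl cultures and 3817, 3464 and 4300 CPM in the Δ/Δ cultures, and its median was 0.3. Most of the sum came from Lyz2, with a mean of 1873 CPM in the fl/fl and 2264 CPM in the Δ/Δ cultures and overlapping values, and Ccr2, with 794 and 1540 CPM. Ly6c2 and Fcgr1 had log2 fold changes of −0.45 and −0.36 (adjusted p = 0.503 and 0.632 by edgeR). Csf1r, which encodes CD115, averaged 5.04 ± 1.47 and 6.28 ± 0.594 CPM, while Mertk and C5ar1 did not pass the filter. The sums of the cDC2 and of the monocyte and macrophage lists were higher in each Δ/Δ than in each fl/fl culture, as were Tlr1 and Tlr13. The sort had left out cells with CD172a or CD115 on their surface, and the part of other cells in the values of Tlr1, Tlr6 and Tlr13 was not tested.

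The other lists did not separate the genotypes. Of 8 neutrophil markers 3 were tested, and they summed to 4.17, 12.5 and 16.5 CPM in the fl/fl cultures and 0.852, 7.61 and 6.12 CPM in the Δ/Δ cultures, led on average by S100a9, with 0 reads of Ly6g and Elane. B cell markers, 5 of 6 tested, summed to 30.9, 18.8 and 26.0 CPM and to 12.8, 49.9 and 24.3 CPM, with Cd79b the most abundant on average. T and NK cell markers, 1 of 6 tested, summed to 0.926, 0.964 and 1.02 CPM and to 0.649, 1.03 and 1.06 CPM, led by Cd3g. Basophil and mast cell markers, 1 of 6 tested, summed to 0.463, 1.26 and 0.764 CPM and to 1.10, 16.8 and 2.47 CPM, led by Gata2 in the fl/fl and by Prss34 in the Δ/Δ cultures. In all 4 lists, 0 genes passed by edgeR, DESeq2 or limma-voom and 0 had an unadjusted p under 0.05. Δ/Δ 2 held the highest sums of B cell and of basophil and mast cell markers, and Tlr1, Tlr3 and Tlr13 kept their calls without it. Δ/Δ 1 and Δ/Δ 3 held such reads as well (B cell sums of 12.8 and 24.3 CPM). The part of these cells in the values of Tlr1, Tlr3 and Tlr13 was not tested.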

How the data were processed

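RNA of sorted cDC1s was sequenced in 3 libraries of c-Jun/JunB fl/fl and 3 of Itgax-Cre c-Jun/JunB fl/fl cultures, as poly(A) RNA in strand-specific libraries read from both ends. The authors aligned reads to mm10 with STAR 2.6.1a and Gencode vM19 and deposited raw counts of uniquely mapped reads per gene, in which sequence shared between genes loses reads. The sources used here do not give the strand column kept. Tallies for reads off genes were dropped, and 79.1 to 79.7% of the tallied reads lay on genes. Of 54532 identifiers, 54495 matched GENCODE M21 on GRCm38. From these counts, edgeR 4.0.16 in R 4.3.3 gave TMM factors (0.989 to 1.01), a filter (minimum count 10, minimum total 15) that left 12894 genes, and a quasi-likelihood test of genotype with Benjamini-Hochberg adjustment. Intervals are edgeR's estimate with its t quantile. Levels per length used the union of exons. Log2 CPM used a prior count of 2.

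As alternatives served the Wald test of DESeq2 1.42.0, its size factors in edgeR, limma-voom (limma 3.58.1), no filter, a stricter filter, each library left out, a replicate block and other lengths. The members and lists were chosen with earlier results of these data known. Genes were named if they were members, the floxed genes, called genes of a list, 12 pathway genes fixed by name, neighbours on the chromosome, or the 5 nearest in pattern. Other genes of the lists were named outside these rules, some as the most abundant of a list. Among them are Irf8, Clec9a, Batf3, Cd24a, Cadm1, Sirpa, Irf4, Itgam, Bst2, Siglech, Csf1r, Ly6c2 and Fcgr1. Fscn1 and Ccr7 were chosen after their values were seen. From the planned marker lists, 1 gene is not reported here and was taken out of its list. Chi-square per degree of freedom between replicate counts was 6.76 to 11.2 in fl/fl and 30.3 to 42.0 in Δ/Δ. These values set cultures of separate mice against sampling noise alone, so they only describe the spread. The steps were tested on simulated counts. Scripts used Python 3.11.15 with pandas 2.3.3 and matplotlib 3.10.9.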

Additional observations from a re-analysis of the deposited data

How the results depend on the processing

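The number of genes past an adjusted p of 0.05, 500 by edgeR, was 1104 by DESeq2's Wald test and 762 with no filter, and ran from 95 (without fl/fl 1 or fl/fl 2) to 1320 (without Δ/Δ 1) with 1 library left out. Of the Toll-like receptor genes, 3 passed, with 1 to 4 past the threshold with 1 library left out. Of pathway genes 4 passed, with 12 by DESeq2, 10 with no filter, and 0 to 17 with 1 library left out. The endosomal share per kb in fl/fl cultures was 89.4% with the longest protein-coding transcript in place of all exons, against 89.6%. The cause of these shifts was not tested, beyond the fewer libraries or other genes each setting uses.

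With a library left out, the log2 fold change of Tlr4 ran from −0.09 to 0.12, that of Tlr9 from −0.11 to 0.08, that of Tirap from −0.17 to 0.02 and that of Irf5 from −0.21 to 0.08. The sign of Il12b turned by limma-voom (−1.23), and its value ran from −2.29 to 0.67 with 1 library left out. None of these but Il12b without Δ/Δ 2 passed the threshold. Of the values of single genes under all alternatives, 420 kept their direction and their side of the threshold, 66 lost their call, 7 gained one and 11 turned.

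The labels do not say whether equally numbered cultures were paired, and deviations within groups of 3 cultures cannot decide it. Those of equally numbered cultures correlated at 0.091, −0.148 and 0.200, and not every culture correlated best with its own number. A replicate block gave 417 genes past the threshold, 3 Toll-like receptor genes and 2 pathway genes, with Il12b at −1.12, Irf7, Cd180, Cyld, Gng2 and Asah1 not past it (adjusted p = 0.0508, 0.0531, 0.0504, 0.0595 and 0.0543) and Junb past it (0.037). Tlr5, Tlr8 and genes near 0 reads are limited by depth, at 3 reads or 0.111 to 0.14 CPM.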
